A study of Mus musculus with 6 samples.

Results

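A set of 10 genes of melanin synthesis was followed in RNA sequencing of the mouse melanoma line B16-BL6. They were taken by name from the 22535 gene rows of the deposited table. The rule used no measured value, but the members were chosen with earlier results of these data known. They are Tyr, Tyrp1 and Dct, which are enzymes, Pmel and Mlana, which belong to the melanosome matrix and its assembly, Oca2, Slc45a2 and Slc24a5, which move ions, and the receptors Gpr143 and Mc1r. All 10 members had a single row and all 10 were among the 11063 genes tested, which are those whose CPM (read counts scaled to the same total in each library) averaged 1 or more over the libraries.

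B16-BL6 is an invasive subline of B16, a pigmented melanoma that arose in a C57BL/6 mouse. Cells carrying a guide RNA against Ndufs4 (sgNDUFS4, 3 libraries) were compared with cells carrying a control guide (sgControl, 3 libraries), both in standard culture medium with serum and with no other treatment named in the labels. Ndufs4 encodes an accessory subunit of mitochondrial complex I, and the comparison was made to look for transcriptional changes linked to the immunogenicity of the sgNDUFS4 cells. The labels do not say whether each line is 1 clone or a pool, nor that the replicates were separate cultures, so the p-values rest on differences among libraries that could be technical repeats. In bulk RNA, fewer cells that express a gene and less RNA of it per cell cannot be told apart.

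Melanin is made in the melanosome, an organelle related to the lysosome. Tyr hydroxylates tyrosine and oxidises the product to dopaquinone, the first and limiting step. Dct, a tautomerase, and Tyrp1, an oxidase, act on later intermediates of the black and brown pigment. Pmel forms the amyloid fibrils on which pigment is laid down, and Mlana binds Pmel and takes part in its maturation. Oca2, needed for a chloride conductance, and Slc45a2, a proton-coupled sugar transporter, keep the melanosome from becoming too acidic for Tyr, while Slc24a5 is a potassium-dependent sodium and calcium exchanger. Gpr143 is a receptor of the melanosome membrane, and Mc1r is the cell surface receptor for melanocyte-stimulating hormone, which acts through cAMP and the transcription factor Mitf. Proteins of this group, among them Tyr, Tyrp1, Dct, Pmel and Mlana, are known in human and mouse melanoma as differentiation antigens that T cells recognise.

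Mitf binds the M-box, a form of E-box with the core CATGTG that is known from the promoters of the 3 enzymes. The 250 bases before the transcription start are shown for the enzymes and for Oca2, since Tyr and Oca2 are the members with the largest differences and Tyrp1 and Dct serve as their comparison. The sequences are from RefSeq on GRCm38.p6, on the strand of the gene, with each core or its reverse complement CACATG in capitals. They cover chr7:87493513-87493762 on the minus strand for Tyr, chr4:80833963-80834212 on the plus strand for Tyrp1, chr14:118052247-118052496 on the minus strand for Dct and chr7:56239509-56239758 on the plus strand for Oca2.
Tyr: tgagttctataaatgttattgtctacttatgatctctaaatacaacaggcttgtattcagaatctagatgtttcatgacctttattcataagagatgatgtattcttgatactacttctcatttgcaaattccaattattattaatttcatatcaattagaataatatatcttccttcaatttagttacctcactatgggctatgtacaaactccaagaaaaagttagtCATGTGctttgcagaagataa
Tyrp1: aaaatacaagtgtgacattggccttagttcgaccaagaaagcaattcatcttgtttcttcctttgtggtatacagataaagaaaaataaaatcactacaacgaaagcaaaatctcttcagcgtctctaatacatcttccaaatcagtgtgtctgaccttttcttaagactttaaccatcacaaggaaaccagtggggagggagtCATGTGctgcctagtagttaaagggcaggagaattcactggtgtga
Dct: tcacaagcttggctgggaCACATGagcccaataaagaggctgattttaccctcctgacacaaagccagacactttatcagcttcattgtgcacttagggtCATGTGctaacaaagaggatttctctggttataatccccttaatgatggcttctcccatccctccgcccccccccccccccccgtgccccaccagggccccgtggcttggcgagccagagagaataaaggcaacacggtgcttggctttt
Oca2: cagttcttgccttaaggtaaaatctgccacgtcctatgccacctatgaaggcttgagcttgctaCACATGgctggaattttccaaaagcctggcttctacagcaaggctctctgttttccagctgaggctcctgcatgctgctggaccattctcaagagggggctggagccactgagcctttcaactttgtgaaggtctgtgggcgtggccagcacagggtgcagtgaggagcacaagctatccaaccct

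Shorter stretches around the core are shown for 1 member that rose, Slc24a5 at chr2:125068102-125068126, and for 1 that did not pass the test, Mc1r at chr8:123407008-123407037, both on the plus strand.
Slc24a5: aaggagactgctCACATGattcagc
Mc1r: acacatccctggCACATGcccatCATGTGg

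Of the 10 members, 6 matched a promoter in the RefSeq table, and they are Tyr, Tyrp1, Dct, Oca2, Slc24a5 and Mc1r. All 6 held the core on one strand or the other within the window of 300 bases, from 250 before to 50 after the start, against 14.2% of all 32851 windows of that length. Since the core was already known from the promoters of the 3 enzymes, their matches add nothing to that comparison. The core began 21 bases before the start in Tyr, 46 in Tyrp1, 150 and 232 in Dct, 186 in Oca2, 13 in Slc24a5 and 51 and 62 in Mc1r. These starts are from RefSeq and can differ from the gene positions given below, which are from GENCODE M21. The GENCODE span of Tyrp1 begins at 80834123, so its core lies inside that span. The longest run around the core that the 3 enzyme windows share, GTCATGTGCT, contains the core and was chosen after the sequences had been seen. It was in those 3 of the 6 windows by that choice, and in 0.186% of all windows. The E-box CACGTG was in none of the 6 windows and in 7.15% of all windows, and the cAMP response element TGACGTCA was in none of the 6 and in 1.79% of all. The SOX motif AACAAAG was in the Dct window alone among the 6 and in 5.85% of all windows. Each motif was searched on both strands, and a match describes the letters in the window and not a bound site.

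Depth ran from 20090607 to 25947374 reads in genes per library. Ndufs4 itself was at 15, 16 and 16.8 CPM in sgNDUFS4 libraries, against 54.3, 55 and 52.4 CPM in sgControl libraries (log2 fold change -1.73, SE 0.0764, limma adjusted p = 5.9e-16). Of 11063 genes tested, 3514 were higher and 2241 lower in sgNDUFS4, so that 61.1% of calls were higher, while scaling by TMM gave 2756 higher and 2850 lower, or 49.2% higher. The melanocytic identity of the line was checked with other markers. Mitf averaged 140.0 ± 5.47 CPM in sgNDUFS4 and 125.6 ± 5.01 CPM in sgControl (SD, n = 3 each), Sox10 averaged 557.4 ± 5.51 CPM in sgNDUFS4 and 607.1 ± 23.0 CPM in sgControl, and Kit, a growth factor receptor of melanocytes, averaged 48.0 ± 3.40 CPM in sgNDUFS4 and 24.8 ± 2.07 CPM in sgControl. Ednrb, an endothelin receptor of melanoblasts, had no read in any library, which allows up to 3 reads, or 0.116 to 0.149 CPM by library.

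Of the 10 members, 5 were lower and 3 higher in sgNDUFS4 and 2 did not pass (limma on log2(CPM + 0.5), Benjamini-Hochberg adjustment over all genes tested, threshold 0.05). Over all genes, 52% were called, 20.3% lower and 31.8% higher. After TMM scaling 6 members were lower, against 25.8% of all genes, and edgeR on recovered reads also gave 6, against 25.9%, the sixth in both being Slc45a2. Those lower were Tyr, Oca2, Mlana, Dct and Tyrp1, those higher were Gpr143, Pmel and Slc24a5, and Slc45a2 and Mc1r did not pass. The median log2 fold change of the 10 members was -0.12, against 0.06 over all genes tested. Tyr and Oca2 changed at least 2-fold, 2 of 10 members, against 3.85% of all genes. Oca2 averaged 0.324 CPM in sgNDUFS4 and 2.55 CPM in sgControl. It thus met the filter of 1 CPM only through sgControl, and its place in these counts depends on that. The values of the groups did not overlap in 9 of 10 members, 6 lower and 3 higher, where 57.2% of all genes did not overlap, 22.2% lower and 35% higher.

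**Figure D1:**
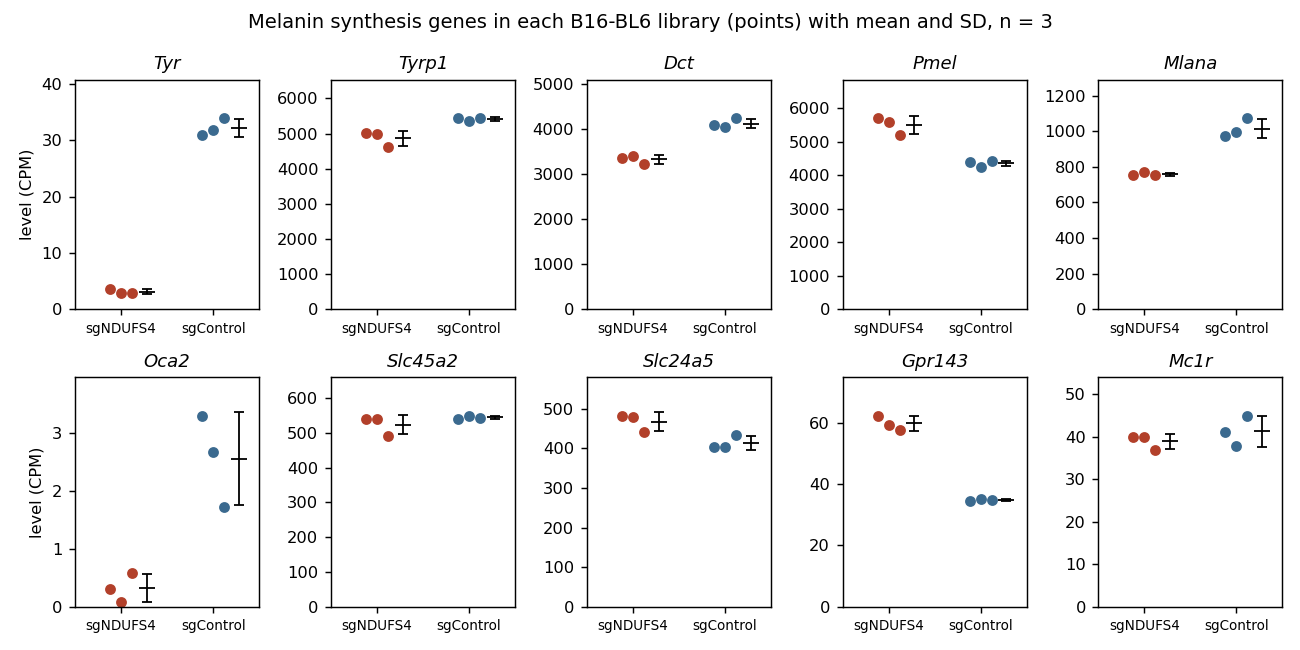
Level of each gene in CPM (vertical axis, from 0) in the 3 sgNDUFS4 and 3 sgControl libraries. Points are libraries and the bars beside them are the mean and SD, n = 3. Tyr and Oca2 are near 0 in sgNDUFS4, Gpr143 and Pmel are above sgControl, and Mc1r overlaps.

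Tyr (ENSMUSG00000004651.6) lies on the minus strand of chromosome 7 from 87424771 to 87493512 on GRCm38, the build of all positions here. Its levels were 3.6, 2.89 and 2.81 CPM in the sgNDUFS4 libraries, against 30.9, 31.9 and 34 CPM in the sgControl libraries. All 3 sgNDUFS4 libraries lay far below every sgControl library, and the spread within each group was small beside the gap. The means were 3.10 ± 0.436 CPM in sgNDUFS4 and 32.3 ± 1.57 CPM in sgControl (SD, n = 3 each), so that sgNDUFS4 held 9.61% of the sgControl level. Tyr fell by 3.19 on the log2 scale (SE 0.126, 95% interval -3.45 to -2.93, limma adjusted p = 5.3e-17), the 19th lowest value among 11063 genes. The call rests on 235 reads in the 3 sgNDUFS4 libraries together and 2132 in the 3 sgControl libraries, a 10.4-fold difference with an exact 95% interval of 9.08 to 11.95 for counting error only. Tyr RNA was thus low in sgNDUFS4 but above the floor of 3 reads, which is between 0.116 and 0.149 CPM in a library.

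Tyrp1 (chromosome 4, 80834123 to 80851719) was at 5006.0, 4979.5 and 4621.9 CPM in sgNDUFS4 libraries, against 5443.4, 5348.7 and 5431.1 CPM in sgControl libraries. It fell by 0.15 on the log2 scale (SE 0.0257, limma adjusted p = 2e-05). The groups did not overlap, but the difference was small, at 90.0% of the sgControl mean, and after each gene was centred on its 50 nearest tested genes the adjusted p was 0.053.

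Dct (chromosome 14, 118012790 to 118052244) was at 3352.3, 3416.6 and 3222.9 CPM in sgNDUFS4 libraries, against 4091.2, 4044.3 and 4252.9 CPM in sgControl libraries. Every sgNDUFS4 library was below every sgControl library, and the sgNDUFS4 mean was 80.7% of that in sgControl. Dct fell by 0.31 on the log2 scale (SE 0.0252, limma adjusted p = 1.2e-10).

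All 3 enzymes fell, Tyr by far the most on the log2 scale, with the limit given for Tyrp1. The log2 ratio of Tyr to Tyrp1 averaged -10.41 ± 0.139 in sgNDUFS4 and -7.37 ± 0.0689 in sgControl (SD, n = 3 each), a difference of -3.04. The log2 ratio of Tyr to Dct averaged -9.86 ± 0.163 in sgNDUFS4 and -6.98 ± 0.0412 in sgControl, a difference of -2.88. In an exact two-sided permutation test over the libraries each of these differences had p = 0.1, also after adjustment over 3 comparisons, which is the smallest p that 3 against 3 libraries allow. Set against the median of the other 9 members in each library, Tyr was at -7.04, -7.32 and -7.22 on the log2 scale in sgNDUFS4 and at -4.11, -4.09 and -3.98 in sgControl.

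Pmel (chromosome 10, 128704195 to 128720238) was at 5714.6, 5597.5 and 5208.4 CPM in sgNDUFS4 libraries, against 4391.3, 4261.6 and 4420.0 CPM in sgControl libraries. All sgNDUFS4 libraries were above all sgControl libraries. Pmel rose by 0.34 on the log2 scale (SE 0.0272, limma adjusted p = 1.1e-10). Its exons share 105 bases with Dgka and 34 with Cdk2 on the opposite strand, which reads sequenced without strand cannot tell apart, and those genes averaged 4.72 and 195.7 CPM in sgNDUFS4 and 3.06 and 206.2 CPM in sgControl.

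Mlana (chromosome 19, 29697824 to 29708634) was at 752.2, 770.0 and 753.3 CPM in sgNDUFS4 libraries, against 974.9, 995.4 and 1075.6 CPM in sgControl libraries. The sgNDUFS4 libraries lay close together and below all sgControl libraries, at 74.7% of the sgControl mean. Mlana fell by 0.42 on the log2 scale (SE 0.0313, limma adjusted p = 2.3e-11), so that the 2 matrix genes moved in opposite directions.

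Oca2 (chromosome 7, 56239760 to 56536518) was at 0.31, 0.0836 and 0.578 CPM in sgNDUFS4 libraries, against 3.29, 2.66 and 1.71 CPM in sgControl libraries. These are 8, 2 and 15 reads in sgNDUFS4 and 66, 63 and 38 reads in sgControl. Oca2 was tested only because its sgControl level lifted its mean over 1 CPM, so its call and rank depend on that filter. The groups did not overlap, the sgControl values varied by more than those of any other member relative to their mean, and 1 sgNDUFS4 library was under the floor of 3 reads. Oca2 fell by 1.90 on the log2(CPM + 0.5) scale (SE 0.309, 95% interval -2.53 to -1.26, limma adjusted p = 1.2e-05), the 69th lowest of all genes tested, and the pseudocount makes this smaller than the change in reads. From summed reads, 25 in sgNDUFS4 and 167 in sgControl, the level was 7.66-fold lower, with an exact 95% interval of 5.01 to 12.2 for counting error only.

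Slc45a2 (chromosome 15, 11000721 to 11029233) was at 539.5, 539.8 and 491.8 CPM in sgNDUFS4 libraries, against 540.3, 549.3 and 543.8 CPM in sgControl libraries. The groups were separated by less than 1 CPM, since 2 of the sgNDUFS4 libraries were next to the lowest sgControl library. The log2 fold change was -0.06 (SE 0.0335, 95% interval -0.13 to 0.01, limma adjusted p = 0.16). Without sgNDUFS4 replicate 3 it was -0.01. Slc45a2 passed as lower after TMM scaling, at -0.12 (adjusted p = 0.0084), and after centring on its 50 nearest genes, at -0.19 (adjusted p = 0.00037).

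Slc24a5 (chromosome 2, 125068124 to 125088677) was at 482.1, 479.0 and 440.6 CPM in sgNDUFS4 libraries, against 402.5, 401.9 and 432.3 CPM in sgControl libraries. The lowest sgNDUFS4 library was just above the highest sgControl library. Slc24a5 rose by 0.18 on the log2 scale (SE 0.0365, limma adjusted p = 0.00019). Of its 2330 exon bases, 921 overlap Myef2 on the other strand, and Myef2 averaged 168.7 ± 5.92 CPM in sgNDUFS4 and 165.5 ± 3.04 CPM in sgControl (SD, n = 3 each, limma adjusted p = 0.6).

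Gpr143 (chromosome X, 152781921 to 152808646) was at 62.3, 59.3 and 57.7 CPM in sgNDUFS4 libraries, against 34.5, 35.2 and 34.8 CPM in sgControl libraries. The groups were well apart. Gpr143 rose by 0.77 on the log2 scale (SE 0.0619, 95% interval 0.64 to 0.90, limma adjusted p = 1e-10), to 1.71 times the sgControl mean, and was the 386th highest of all genes tested. Its 50 nearest tested genes had a median of 0.17, and centred on them it was at 0.58.

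Mc1r (chromosome 8, 123407107 to 123410744) was at 40, 39.9 and 36.9 CPM in sgNDUFS4 libraries, against 41.1, 37.8 and 45 CPM in sgControl libraries. These ranges overlapped. The log2 fold change was -0.08 (SE 0.0715, 95% interval -0.23 to 0.07, limma adjusted p = 0.35), so that a fall or rise of 2-fold lay outside the interval and a small change did not. It was -0.14 without sgControl replicate 2 and -0.02 without sgControl replicate 3, and did not pass in either case. Gm38092, which was not analysed here, shares 653 exon bases with Mc1r on the opposite strand, so the Mc1r counts are uncertain. The predicted gene Gm20388 spans the locus on the same strand but shares 0 exon bases with Mc1r.

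**Figure D2:**
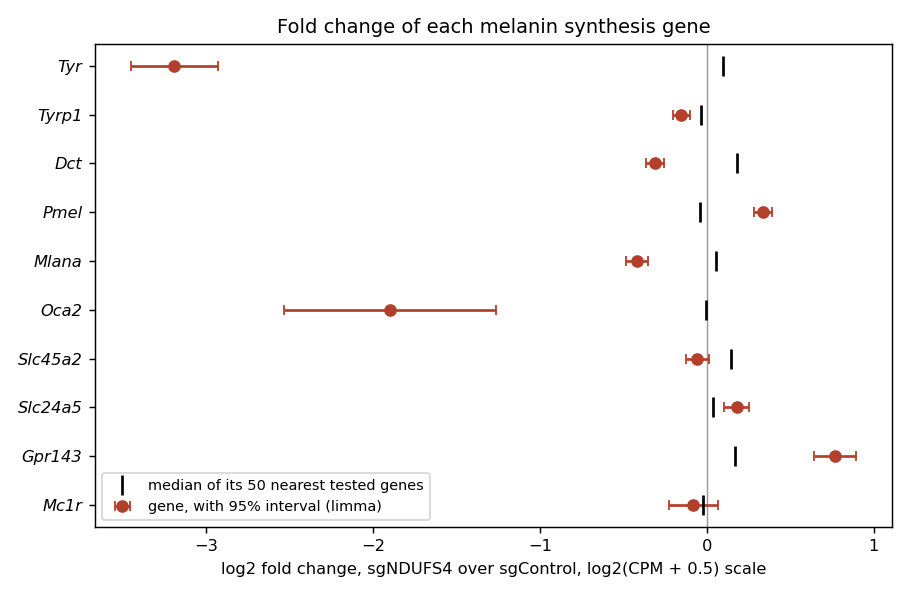
Log2 fold change of sgNDUFS4 over sgControl on the log2(CPM + 0.5) scale (horizontal axis) for each gene, with 95% intervals from limma, n = 3 libraries each. The black marks, medians of the 50 nearest tested genes, lie between -0.04 and 0.18, while Tyr is at -3.19 and Oca2 at -1.90.

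The summed level of the 10 members overlapped between the groups. They summed to 15952.9, 15884.4 and 14836.8 CPM in sgNDUFS4 libraries, against 15953.3, 15708.8 and 16271.3 CPM in sgControl libraries. Replicate 3 was the lowest sum in sgNDUFS4 and the highest in sgControl, and each sum was 1.48% to 1.63% of the reads of its library. Tyrp1, Pmel and Dct made up 88.0% to 88.2% of that sum in sgNDUFS4 and 86.7% to 87.3% in sgControl. Within the sum, Pmel took 35.1% to 35.8% in sgNDUFS4, against 27.1% to 27.5% in sgControl, and Tyr took 0.0182% to 0.0226% in sgNDUFS4, against 0.194% to 0.209% in sgControl. In sgNDUFS4, replicate 3 was the lowest library of its group for 8 of the 10 members, and no call of a member changed when it was left out.

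Per length of exon, the members spanned a wide range of levels. In sgNDUFS4 the order was Pmel at 2403 ± 115.6 CPM per kb, Tyrp1 at 1722 ± 75.9, Mlana at 717.6 ± 9.43 and Dct at 565.0 ± 16.7. Slc24a5 at 200.5 ± 9.93 and Slc45a2 at 175.6 ± 9.25 CPM per kb followed, then Gpr143 at 29.9 ± 1.19, Mc1r at 10.7 ± 0.479, Tyr at 0.436 ± 0.0613 and Oca2 at 0.0818 ± 0.0625 (SD, n = 3). No neighbours in that order overlapped in their ranges over libraries. In sgControl, Tyrp1 at 1912 ± 18.2 and Pmel at 1901 ± 36.8 CPM per kb lay within each other's spread. Slc45a2 at 182.5 ± 1.53 lay within the spread of Slc24a5 at 176.9 ± 7.47, though not the reverse. The other neighbours in the sgControl order were apart by more than their spread, with Mlana at 960.5 ± 50.4, Dct at 700.5 ± 18.6, Gpr143 at 17.5 ± 0.182, Mc1r at 11.4 ± 0.989, Tyr at 4.54 ± 0.221 and Oca2 at 0.644 ± 0.201 (SD, n = 3). The exon lengths include bases shared with genes on the opposite strand, among them 921 in Slc24a5 and 653 in Mc1r, so those levels are uncertain. The order also depends on the length used. Per length of the longest transcript, Dct was above Mlana, at 962.9 and 837.2 CPM per kb in sgNDUFS4 and at 1194 and 1121 CPM per kb in sgControl, where their ranges overlapped. In sgControl, Slc24a5 at 211.0 ± 8.90 was then above Slc45a2 at 182.5 ± 1.53 CPM per kb with no overlap, and Pmel at 2046 was above Tyrp1 at 1988 CPM per kb with overlap. Per exon length, among 10894 tested genes, Pmel ranked 6th in sgNDUFS4 and 11th in sgControl, and Tyrp1 13th in sgNDUFS4 and 10th in sgControl. Tyr ranked 10424th in sgNDUFS4 and 6515th in sgControl, so that in both groups the enzyme of the first step was one of the 2 least abundant members per length.

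**Figure D3:**
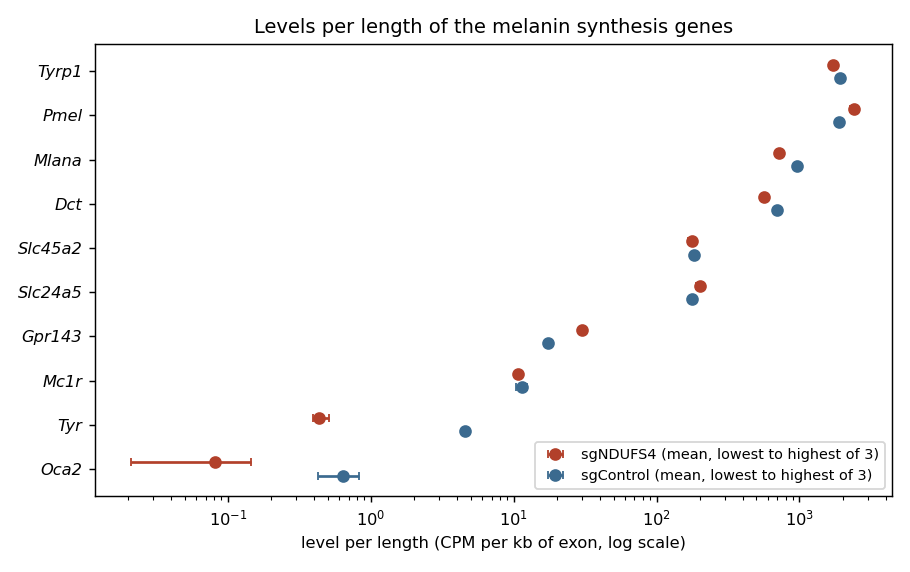
Level per length in CPM per kb of exon (horizontal axis, log scale) of each gene in sgNDUFS4 and sgControl. Points are means and bars run from the lowest to the highest of 3 libraries. Tyr lies at 0.436 in sgNDUFS4 and 4.54 in sgControl, a wider gap than that of any other gene shown.

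The tested genes nearest to Tyr on chromosome 7 moved both ways. Nox4, an NADPH oxidase, lies next on the side of lower coordinates and averaged 4.48 ± 0.173 CPM in sgNDUFS4 and 2.58 ± 0.223 CPM in sgControl (log2 fold change 0.69, limma adjusted p = 0.0032). Zfand6, the next tested gene beyond it, begins at -2880 kb from the start of Tyr and had a log2 fold change of 0.45 (adjusted p = 4.1e-05). On the other side Ctsc, a lysosomal protease, was at 0.11 (adjusted p = 0.2) and Rab38, a small GTPase that carries Tyr and Tyrp1 to the melanosome, fell by 0.38 (adjusted p = 8.1e-09). Over all genes 31.8% were higher and 20.3% lower, with a median of 0.06. The 10 nearest tested genes on each side begin between -4.84 and 2.81 Mb from the start of Tyr. Of these, 11 were higher and 3 lower, with a median of 0.22. The largest fall among them, named after its value was seen, was Arnt2, with no read in sgNDUFS4 and 1.49, 3.34 and 1.98 CPM in sgControl. Its fitted log2 fold change of -2.41 depends on the pseudocount, and Arnt2 passed the filter of 1 CPM only through sgControl. The 50 genes nearest to Oca2 had a median of -0.01.

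**Figure D4:**
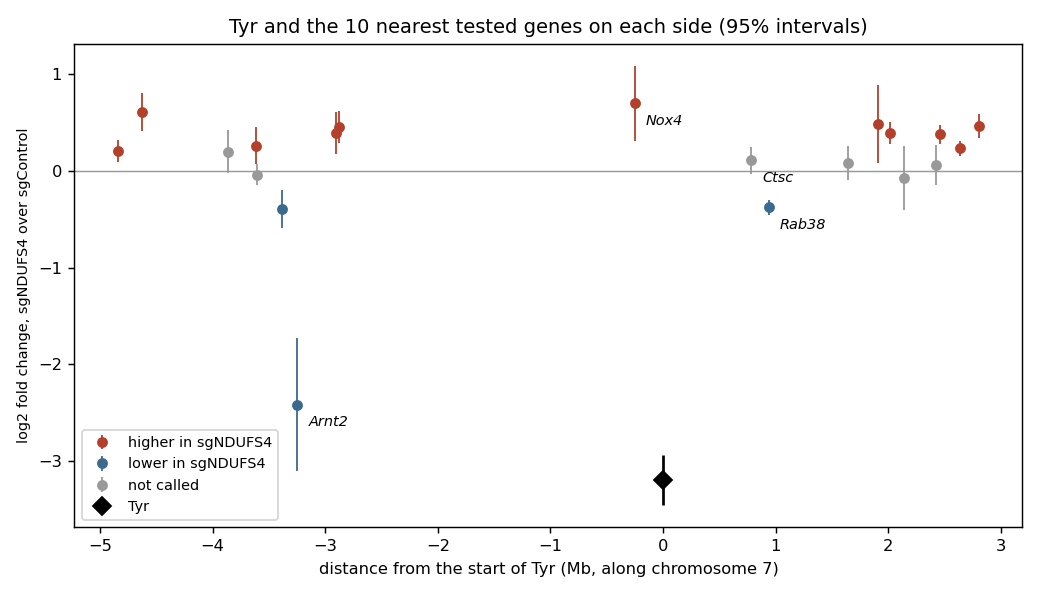
Log2 fold change of sgNDUFS4 over sgControl (vertical axis, 95% intervals) of Tyr and of the 10 nearest tested genes on each side, by distance from the start of Tyr in Mb. Tyr is at -3.19, Arnt2 at -2.41, and the other neighbours lie between -0.40 and 0.69.

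Genes whose pattern over the 6 libraries was most like that of Tyr were sought among tested genes averaging 5 CPM or more, without predicted gene models, a limit that left out Oca2. Likeness was the root mean square difference of log2(CPM + 0.5) values centred on the sgControl mean. The nearest were Atp10b at 0.21, Lmo1 at 0.29, Ephb6 at 0.35, Mgll at 0.35 and Acsbg1 at 0.36 log2 units. Atp10b, a phospholipid-transporting ATPase, was at 1.12, 0.795 and 0.617 CPM in sgNDUFS4, against 14.2, 14.7 and 13.6 CPM in sgControl. Lmo1, a LIM-domain regulator of transcription, averaged 1.44 ± 0.469 CPM in sgNDUFS4 and 14.2 ± 3.27 CPM in sgControl (SD, n = 3 each). The log2 fold changes of Ephb6, Mgll and Acsbg1 were -3.59, -2.97 and -2.75. Each of these genes averaged below 5 CPM in sgNDUFS4 and so entered the search only through sgControl.

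Other pigment genes moved both ways, read against 31.8% of all genes called higher and 20.3% lower. Of 16 listed transcription factors of the melanocyte lineage 13 were tested. In sgNDUFS4, 5 of them rose and 5 fell, and the median log2 fold change was -0.01. After TMM scaling 2 of them rose, where 24.9% of all genes were called higher. Tfe3 and Tbx2 averaged 27.8 ± 0.912 and 50.4 ± 4.25 CPM in sgNDUFS4 and 55.5 ± 1.96 and 91.2 ± 1.41 CPM in sgControl (SD, n = 3 each). Tfe3, a relative of Mitf, is on chromosome X, where its 50 nearest tested genes had a median of -0.74. Lef1 rose by 1.57 and Usf2 fell by 0.39 on the log2 scale. Lef1 averaged 2.45 CPM in sgNDUFS4 and 0.487 CPM in sgControl, so it passed the filter of 1 CPM only through sgNDUFS4. Mitf, the regulator of the enzyme genes, rose by 0.16 (adjusted p = 0.0047), which was 0.10 after TMM scaling (adjusted p = 0.068) and 0.05 after centring on its 50 nearest genes (adjusted p = 0.42). Sox10 fell by 0.12 (adjusted p = 0.0016) and was at 0.10 after centring (adjusted p = 0.016). Pax3 was at -0.08 (adjusted p = 0.15), and passed as lower after TMM scaling at -0.14 (adjusted p = 0.017).

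Melanocortin and cAMP signalling had 25 tested genes among 28 listed. Of these, 8 rose and 5 fell, and their median log2 fold change was 0.05, which was below 0 after TMM scaling. The adenylyl cyclase Adcy6 averaged 76.2 ± 3.44 CPM in sgNDUFS4 and 47.5 ± 3.81 CPM in sgControl, while Adcy7 averaged 40.6 ± 2.14 CPM in sgNDUFS4 and 64.1 ± 0.855 CPM in sgControl (SD, n = 3 each). Crtc2, a CREB coactivator, and Pde4b, a cAMP phosphodiesterase, rose by 0.44 and 0.73 on the log2 scale. Prkar1a, a regulatory subunit of protein kinase A, was at 0.05 (adjusted p = 0.21). Crtc2 lies where its 50 nearest genes had a median of 0.36.

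Of 21 listed genes of other melanosome transport and substrate supply 15 were tested, of which 5 rose and 5 fell, and the median log2 fold change was -0.03. Atp7a, the copper pump that loads Tyr with its metal, averaged 17.7 ± 1.24 CPM in sgNDUFS4 and 45.9 ± 4.08 CPM in sgControl (SD, n = 3 each). It is on chromosome X among 50 genes with a median of -0.98, and its own log2 fold change was -1.35. Mcoln1, a lysosomal cation channel, rose by 0.73, whereas Slc7a5, an amino acid transporter, and Spr, an enzyme of biopterin synthesis, fell by 0.24 each on the log2 scale. Slc3a2 was at -0.03 (adjusted p = 0.57).

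All 31 genes of melanosome biogenesis and movement were tested. Of these, 10 rose and 7 fell, and the median log2 fold change was 0.00428. Atp7a, given above with its neighbours on chromosome X, is in this list too and is among the 7. After TMM scaling 12 of the 31 fell, where 25.8% of all genes were called lower, and the median was -0.054. Mlph, the melanophilin link between Rab27a and myosin Va, averaged 178.7 ± 1.78 CPM in sgNDUFS4 and 385.2 ± 11.9 CPM in sgControl (SD, n = 3 each). Gpnmb, a melanosomal glycoprotein related to Pmel, averaged 4996 ± 51.0 CPM in sgNDUFS4 and 7306 ± 247.6 CPM in sgControl (SD, n = 3 each). Bace2, a protease that processes Pmel, averaged 312.1 ± 6.35 CPM in sgNDUFS4 and 191.9 ± 15.3 CPM in sgControl, a rise of 0.70 on the log2 scale. Cd63, a tetraspanin that sorts Pmel, was at 0.03 (adjusted p = 0.46). Gpnmb and its relative Pmel thus moved in opposite directions.

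Of 17 Mitf targets outside the 10 members 13 were tested, of which 3 rose and 5 fell. The median was again 0.00428, the value of Rab27a, which both lists hold. Met, the receptor for hepatocyte growth factor, averaged 60.8 ± 2.53 CPM in sgNDUFS4 and 26.5 ± 1.05 CPM in sgControl, and Trpm1, a channel of melanocytes, averaged 37.0 ± 2.19 CPM in sgNDUFS4 and 56.9 ± 2.01 CPM in sgControl (SD, n = 3 each). Gpnmb and Tbx2 fell as given above, and Cdk2, which overlaps Pmel, was at -0.08 (adjusted p = 0.089). Cdk2 passed as lower after TMM scaling, at -0.13 (adjusted p = 0.0043), and with edgeR (adjusted p = 0.0034) and DESeq2 (adjusted p = 0.0018) on recovered reads.

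**Figure D5:**
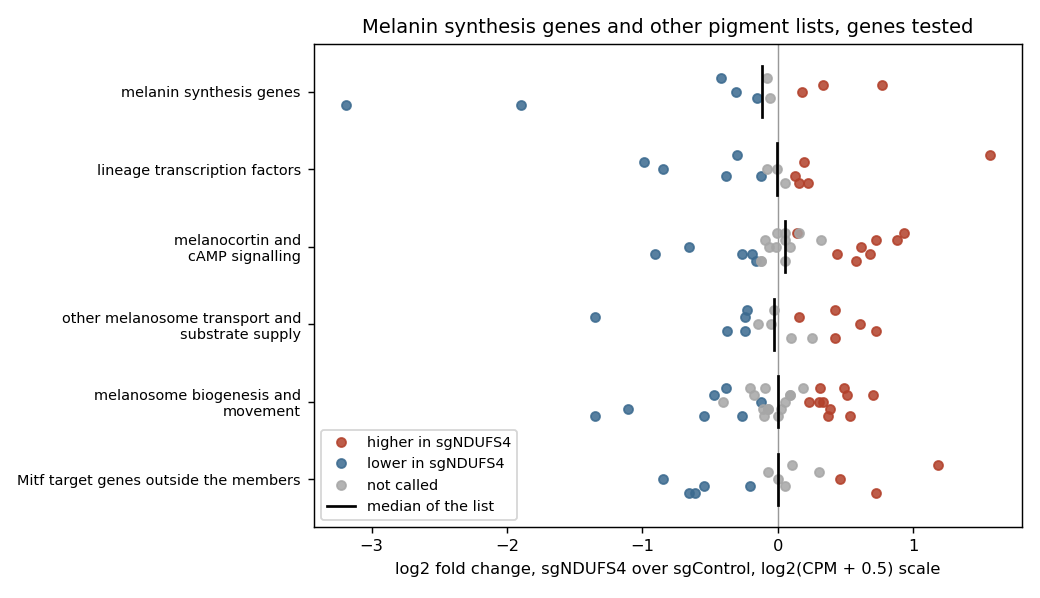
Log2 fold change of sgNDUFS4 over sgControl on the log2(CPM + 0.5) scale (horizontal axis) of each tested gene, 1 point a gene, in the melanin synthesis genes and 5 other lists. The black bars are list medians, from -0.12 to 0.05, and Tyr at -3.19 and Oca2 at -1.90 lie below every other gene shown.

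Markers of other cell types were mostly at or near 0, Mbp apart. Of 23 measured, 9 had no read in any library, among them Dcn, Lum, Cd3e, Pecam1, Cdh5 and Kdr. A further 9 were tested, of which 1 rose and 2 fell, where 31.8% of all genes were higher and 20.3% lower. For all 23 the summed level was 784.5 to 968.2 CPM in sgNDUFS4 and 740.4 to 888.8 CPM in sgControl, most of it Mbp, at 786.7 ± 100.0 CPM in sgNDUFS4 and 742.3 ± 74.9 CPM in sgControl (SD, n = 3 each). Col1a2 averaged 33.3 ± 2.13 CPM in sgNDUFS4 and 31.5 ± 2.79 CPM in sgControl. The part of these genes in the differences of the 10 members was not tested.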

How the data were processed

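Polyadenylated RNA was sequenced paired-end without strand, per the labels' protocols. The submitters' processing notes name HISAT2 and GRCm38; which tool and annotation produced the counts is not given in the sources used here. CPM values as the authors deposited them have the same total in every library. Whole reads were recovered from them, with 99.98% to 100% of values above 0 whole within a tolerance of 0.01. The values of 1 read give libraries of 20090607 to 25947374 reads and set the precision; intervals and floors cover counting error only, since the labels name no molecular identifiers. No member was among the 26 gene symbols stored as dates or the 25 symbols on more than 1 row.

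The test was limma 3.58.1 in R 4.3.3 with a mean-variance trend on log2(CPM + 0.5), run two-sided on the genes averaging 1 CPM or more, with p-values adjusted by Benjamini-Hochberg over the whole table. Symbols were matched to GENCODE M21 for positions and exon lengths. Alternatives were other pseudocounts, filters, scalings and variance models, a block by replicate number, leaving out 1 library, edgeR 4.0.16 (2723 genes higher, 2860 lower) and DESeq2 1.42.0 on the recovered reads, and centring on the 50 nearest tested genes. The fit was also run on simulated data in which few genes changed, as many up as down. In the real data 52% of genes were called, so that run does not test the scaling.

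The members and lists were chosen with earlier results of these data known. Besides the members and Ndufs4, the rule for named genes took from each list up to 4 called genes with the smallest p and 1 not called, the 3 marker genes with the highest mean (1 is not reported here), the 2 nearest tested genes on each side of Tyr and the 5 genes most like Tyr. Mitf, Sox10, Kit, Ednrb and genes overlapping a member were added as checks. Protein identity was not analysed here, and the authors' fold change and p-value columns were not used here.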

Additional observations from a re-analysis of the deposited data

How the results depend on the processing

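All 8 calls among the 10 members kept their direction under every alternative that tested them, and 7 kept their side of the threshold. The exception was Tyrp1, at -0.093 (adjusted p = 0.053) after centring on the 50 nearest genes. Oca2 could not be tested among genes averaging 5 CPM or more, which leaves 4 lower members. Tyr ranged from -3.44 with DESeq2 to -3.02 with a pseudocount of 1, and Oca2 from -3.02 to -1.42. Slc45a2 became a lower call with TMM (-0.12), edgeR (-0.12), DESeq2 (-0.12) and centring (-0.19), so that TMM, edgeR and DESeq2 gave 6 lower members; 3 were higher in every alternative. A scaling by TMM moved the median of all genes to 0.0036, against 0.06 as deposited. Depth limits Oca2 most, with 25 reads in sgNDUFS4. Where a result changed, the cause was not tested.

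Same-numbered libraries had correlations of deviations of 0.056, 0.012 and 0.097, and different-numbered libraries had values from -0.087 to 0.035. These small values do not settle whether the numbers pair the libraries. With a replicate block, 3 members were higher and 5 lower, and 3632 genes were higher and 2309 lower.

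Over all genes, TMM gave 24.9% higher and 25.8% lower, edgeR 24.6% and 25.9%, and DESeq2 23.5% and 25%. For the other alternatives no such share is set beside the list counts below. Of the lineage factors, 2 were higher with TMM, edgeR, DESeq2, no trend and centring, and 3 with quantile normalization. With 1 library left out 3 to 5 of them were higher, 3 being without sgNDUFS4 replicate 1. Of melanocortin genes, 5 were higher at 5 CPM or more and 3 lower with no trend; the median was -0.0082 with TMM, -0.0084 with edgeR, -0.0088 with DESeq2 and -0.029 with centring. The median of other transport genes was -0.085 with TMM, edgeR and DESeq2 and -0.068 with centring. Of the biogenesis genes, 12 were lower with TMM, edgeR and DESeq2 and 6 higher with centring. The biogenesis and Mitf target medians were both -0.054 with TMM, -0.060 with quantile normalization and -0.056 with edgeR and DESeq2. With centring they were -0.031 for biogenesis and -0.028 for Mitf targets, which were at -0.035 with no filter and at 5 CPM or more. With 1 library left out, biogenesis ran from -0.057 to 0.010 and Mitf targets from -0.018 to 0.026. Of other cell type markers, 2 were higher with no filter, no trend or the block, and 1 was lower at 5 CPM or more; with 1 library left out, 1 to 2 were higher and 1 to 3 lower, and with centring the median was -0.18.

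Centring reversed the sign of Pax3 (0.0059), Prkar1a (-0.088), Slc3a2 (0.099), Mbp (-0.042), Col1a2 (-0.18), Sox10 (0.10), Myef2 (-0.033) and Ctsc (-0.025). TMM, edgeR and DESeq2 reversed Prkar1a (-0.0082, -0.0093 and -0.0096), Cd63 (-0.034, -0.035 and -0.036) and Myef2 (-0.032, -0.033 and -0.034), and quantile normalization reversed Cd63 (-0.017). With 1 library left out, Slc3a2 ran from -0.055 to 0.0062 and Mbp from -0.019 to 0.16. Both changed sign without sgNDUFS4 replicate 3. Of these genes only Sox10 had been called.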
